A study of Mus musculus with 8 samples.

Results

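Collagens are the rod-like proteins that give extracellular matrix its structure. Each molecule is wound from 3 chains, and along the helical part of a chain glycine recurs at a fixed short interval, because only glycine has room at the centre of the triple helix. The brain parenchyma holds little fibrillar collagen. Its collagen lies mainly in the basement membranes of blood vessels and of the pial surface, in the meninges and, as transmembrane or fibril-associated forms, on neurons. The chain genes were described here in the cortex of newborn mice after a fetal interruption of the uterine blood supply. A probe was taken as a member when it was no control spot and its gene name in the array files had the form Col, a number, a and a number. This gave 43 genes, out of 34787 distinct gene names in the files, measured by 68 of the 55681 probes. Col26a1, whose 2 probes carry an older name in the files, falls outside this rule.

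The ischemia group held 4 pups whose mothers were anesthetised at embryonic stage E16.5 and had the uterine arteries clipped shut for 14 min. The control group held 4 pups, and the labels do not say whether their mothers were operated on without occlusion. All 8 were males of the strain C57BL/6NCr, sampled at postnatal day 1.5, with no genetic change in either group. Cortical RNA, 50 ng per pup, was labelled with Cy3 and hybridised to 1 one-colour Agilent array each. The labels do not say which pups shared a mother, so the p-values measure the spread between these pups only. Each group lay in 1 row of the slide, so slide row and group cannot be told apart.

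Tbr1, a transcription factor of cortical projection neurons, was well above background on all 8 arrays. The 75th percentile of the non-control signals ranged from 358.5 to 393.3 in ischemia arrays and from 305.6 to 391.4 in controls. Precision is limited by having 4 arrays per group. Signals of markers of other tissue differed between arrays. Of 13 meningeal markers 10 were measured, and their summed signal, in units of each array's 75th percentile, ranged from 3.91 to 15.5 in ischemia arrays and from 3.71 to 4.77 in controls. The 2 high arrays were ischemia replicates 1 and 4, and Ptgds alone made 8.24 of the sum in ischemia replicate 1 and 11.1 of it in ischemia replicate 4. Without Ptgds the sum was 5.72, 3.08, 3.85 and 4.32 in ischemia replicates 1 to 4, against 3.22 to 4.07 in controls. Of the 10 markers, 6, 2, 2 and 3 exceeded every control in ischemia replicates 1 to 4, in the last of them Slc6a13, Igf2 and Ptgds. Of 11 choroid plexus markers 5 were measured, and their summed signal was 0.905, 0.673, 1.06 and 113.7 in ischemia replicates 1 to 4, against 0.859 to 1.06 in controls. The sum in ischemia replicate 4 was mostly Ttr. Relative to the mean of the controls, on the log2 scale, that array was at 10.12 for Ttr, 3.96 for Aqp1, 3.28 for Folr1, 0.83 for Sostdc1 and 0.15 for Otx2. The bone and cartilage markers Sp7, Ibsp, Bglap, Dmp1, Matn1 and Comp were above background on 0 of 8 arrays. Values without ischemia replicates 1 and 4 are given beside the chains in which these arrays stood apart.

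Few probes of the array lie in the part of the message that codes for the triple helix in an unbroken repeat. Such a probe has a glycine codon, GG and any base, every 9 bases. Of 55655 probes searched in the sense direction for 6 such codons, 7 had them, and 2 of these were collagen probes. They are shown because they make the repeat visible in the measured sequence itself, 5′ to 3′, with the glycine codons in capitals. The Col25a1 probe lies at chr3:130270497-130270556 and the Col15a1 probe at chr4:47283786-47283845, both on the plus strand of mm9, the build of the array files.
Col25a1: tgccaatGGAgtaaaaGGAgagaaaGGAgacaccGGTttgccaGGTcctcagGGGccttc
Col15a1: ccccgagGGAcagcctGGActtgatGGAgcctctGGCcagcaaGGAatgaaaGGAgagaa
The first of them was measured on 8 of 8 arrays, and the second was well above background on none.

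The 2 chains that form the main collagen of every basement membrane, Col4a1 and Col4a2, are neighbours that are read away from a common start region. RefSeq promoter windows, running from 250 bases before to 50 bases after the annotated start in GRCm38.p6, were found for 35 of the 43 genes. The windows of Col4a1 (chr8:11312777-11313076, minus strand) and Col4a2 (chr8:11312555-11312854, plus strand) overlap by 78 bases, shown in capitals, and their annotated starts lie 21 bases apart. The shared stretch reads as the reverse complement in the other gene's window. They are shown because the 2 genes share this stretch and were both highest in the same array, control replicate 4. That array was also the highest for Col2a1 and Col18a1, so the shared peak is not particular to this pair.
Col4a1: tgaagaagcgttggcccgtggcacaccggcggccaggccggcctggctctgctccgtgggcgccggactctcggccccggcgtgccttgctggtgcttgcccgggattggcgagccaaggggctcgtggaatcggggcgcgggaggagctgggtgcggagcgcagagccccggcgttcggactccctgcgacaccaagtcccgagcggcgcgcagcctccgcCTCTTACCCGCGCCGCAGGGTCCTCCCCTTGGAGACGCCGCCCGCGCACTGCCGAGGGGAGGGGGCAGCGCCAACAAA
Col4a2: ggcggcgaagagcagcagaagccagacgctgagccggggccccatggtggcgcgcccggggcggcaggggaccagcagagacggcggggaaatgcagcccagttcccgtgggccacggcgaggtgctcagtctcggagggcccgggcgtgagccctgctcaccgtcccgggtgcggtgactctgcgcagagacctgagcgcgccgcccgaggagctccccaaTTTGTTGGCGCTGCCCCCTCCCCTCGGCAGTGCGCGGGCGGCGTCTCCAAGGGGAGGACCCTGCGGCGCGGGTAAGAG
The annotated starts of Col4a5 and Col4a6, another divergent pair, lie 1343 bases apart.

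Col1a2 codes for the other chain of type I collagen, the collagen of the main fibrils of connective tissue. It is shown because its signal in ischemia replicate 1 stood apart from all other arrays. Its window (chr6:4505368-4505667, plus strand, GRCm38.p6) is shown with both matches to CCAAT, the box bound by the factor NF-Y, in capitals. One match is on the printed strand and the other is its complement.
Col1a2: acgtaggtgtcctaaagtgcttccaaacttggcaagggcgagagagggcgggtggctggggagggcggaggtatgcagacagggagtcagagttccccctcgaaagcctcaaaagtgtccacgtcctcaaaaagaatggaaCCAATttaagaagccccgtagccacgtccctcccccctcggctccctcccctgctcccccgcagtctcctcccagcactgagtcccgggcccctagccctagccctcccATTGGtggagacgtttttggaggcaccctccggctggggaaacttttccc
Searched on both strands, CCAAT was found in 13 of 38 collagen windows (34.2%) and in 37.4% of all 32851 windows. GGGCGG, the GC box, was found in 23 collagen windows (60.5%) and in 35.7% of all windows, and TATAAA in 5 collagen windows (13.2%) and in 13.6% of all windows. Matches of CCAAT and GGGCGG can share letters at their ends, and a match is a description of the letters only.

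Of the 43 collagen genes 24 gave a measurable signal. To be tested, a probe had to stand well above background on 4 or more of the 8 arrays, and a gene with several such probes was represented by its brightest. Of the 24 genes, 19 were well above background on 8 of 8 arrays. Of the other 19 genes, 12 were well above background on 0 arrays with every probe, and 7 on 1 to 3 arrays with some probe. Of the 68 probes, 29 were never well above background. Signals of different probes are not compared with each other, since each probe binds with its own strength.

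Among fibril-forming chains 8 of 11 were kept. Col24a1 and Col27a1 were dark, which here means that 0 of 8 arrays were well above background. Col11a2, a chain of cartilage fibrils, was well above background on 0 ischemia arrays and 3 control arrays, with signals of 31.0, 16.1, 32.3 and 21.6 in ischemia replicates 1 to 4, against 46.3, 33.2, 37.9 and 29.4 in control replicates 1 to 4. The ranges overlap. It was not tested.

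Basement membrane chains were the most completely detected group, with 5 of 6 kept, all of them on 8 of 8 arrays. Col4a3, a chain of the mature kidney glomerulus, was the dark one. Col4a4 was kept through 1 probe only, and its other probes were dark. Of the 6 chains of type VI collagen, which forms beaded microfibrils around cells, Col6a1 and Col6a2 were kept, while Col6a4 and Col6a6 were dark. Of the short-chain network collagens Col8a2 was kept, and Col8a1 and Col10a1, the chain of hypertrophic cartilage, were dark. Col7a1, the chain of the anchoring fibrils of skin, was kept, and Col28a1 was dark.

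Of 9 fibril-associated chains with interrupted helices, known as FACITs, 4 were kept, namely Col9a1, Col9a2, Col16a1 and Col22a1. Col19a1 was dark, and Col9a3, Col12a1, Col14a1 and Col20a1 fell short of the filter. Of the multiplexins, whose cleaved end fragments act on vessels, Col18a1 was kept and Col15a1 dark with all 3 of its probes. Of the transmembrane chains Col23a1 and Col25a1 were kept and Col13a1 and Col17a1 were dark.

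No collagen chain differed between ischemia and control after adjustment over all genes. Limma called 0 of the 24 tested chains at an adjusted p under 0.05, against 0.00506% of the 19751 genes tested, and the smallest adjusted p among the chains was 0.134. With a trended and robust variance 1 chain, Col22a1, was called (adjusted p = 0.0356), against 0.101% of all genes. At an unadjusted limma p under 0.05 stood 5 chains, or 20.8%, where 10.9% of all genes did. Of these 5, the 3 chains Col5a3, Col7a1 and Col23a1 were higher in ischemia, where 3.25% of all genes were, and the 2 chains Col18a1 and Col22a1 lower, where 7.65% were. The groups did not overlap in 3 chains (12.5%), against 6.55% of all genes. Col7a1 and Col23a1 lay above all controls, where 2.27% of all genes did, and Col22a1 below, where 4.28% did. In bulk tissue, fewer cells of a type and less RNA per cell cannot be told apart.

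By direction alone, 15 of 24 chains (62.5%) were higher in ischemia by any amount, where 43% of all genes were. The median log2 difference over the 24 chains was 0.09, beside -0.02 over all genes. With detection required on all 8 arrays, 10 of 19 chains were higher and the median was 0.04. That stricter filter leaves out Col1a1, Col5a3, Col6a1, Col6a2 and Col8a2, all of which had higher means in ischemia. Of these, Col1a1 and Col5a3 met the main filter mainly through the ischemia arrays, where they were higher. Without ischemia replicates 1 and 4, 10 of 24 chains were higher, 14 were lower and the median was -0.06. These are the arrays with the high meningeal sum, of which Ptgds made 8.24 of 13.96 in replicate 1 and 11.1 of 15.5 in replicate 4. They were also the highest of all arrays in 8 and 5 chains, so removing them from ischemia alone pulls the count and median down in any case. The part of meningeal tissue in this shift was not tested. The collagen chains had a median SD between pups of 0.23 in ischemia and 0.21 in control, beside 0.13 in ischemia and 0.12 in control over all genes. The sets were not matched for brightness, and 5 of the chains were not well above background on every array. With normexp background correction, which lifts dim signals by an offset of 50, the difference was smaller in size in 20 of 24 chains and more than 1.5 times smaller in 12.

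**Figure D1:**
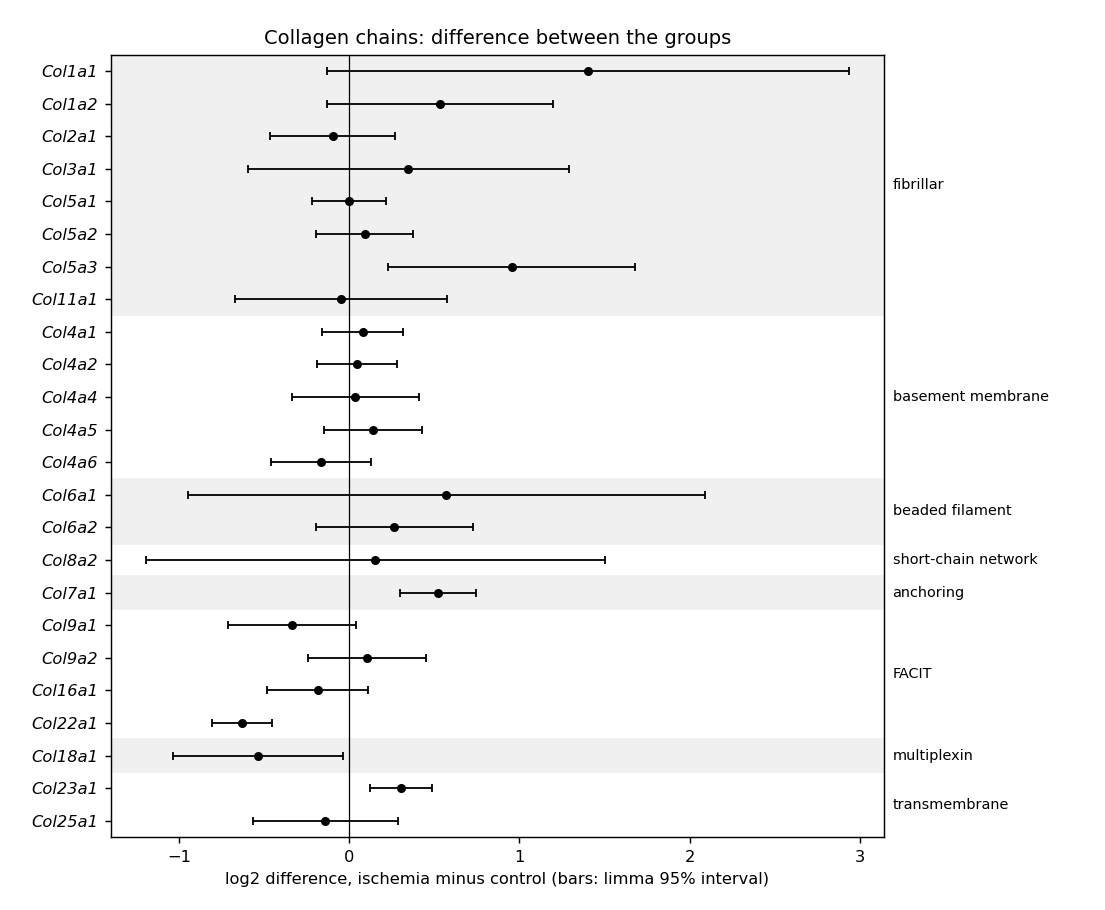
Log2 difference, ischemia minus control, of the 24 tested collagen chains by role, with limma's 95% interval over 4 arrays per group. The intervals of Col5a3, Col7a1, Col18a1, Col22a1 and Col23a1 leave out 0, and that of Col1a1 reaches from -0.13 to 2.94.

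**Figure D2:**
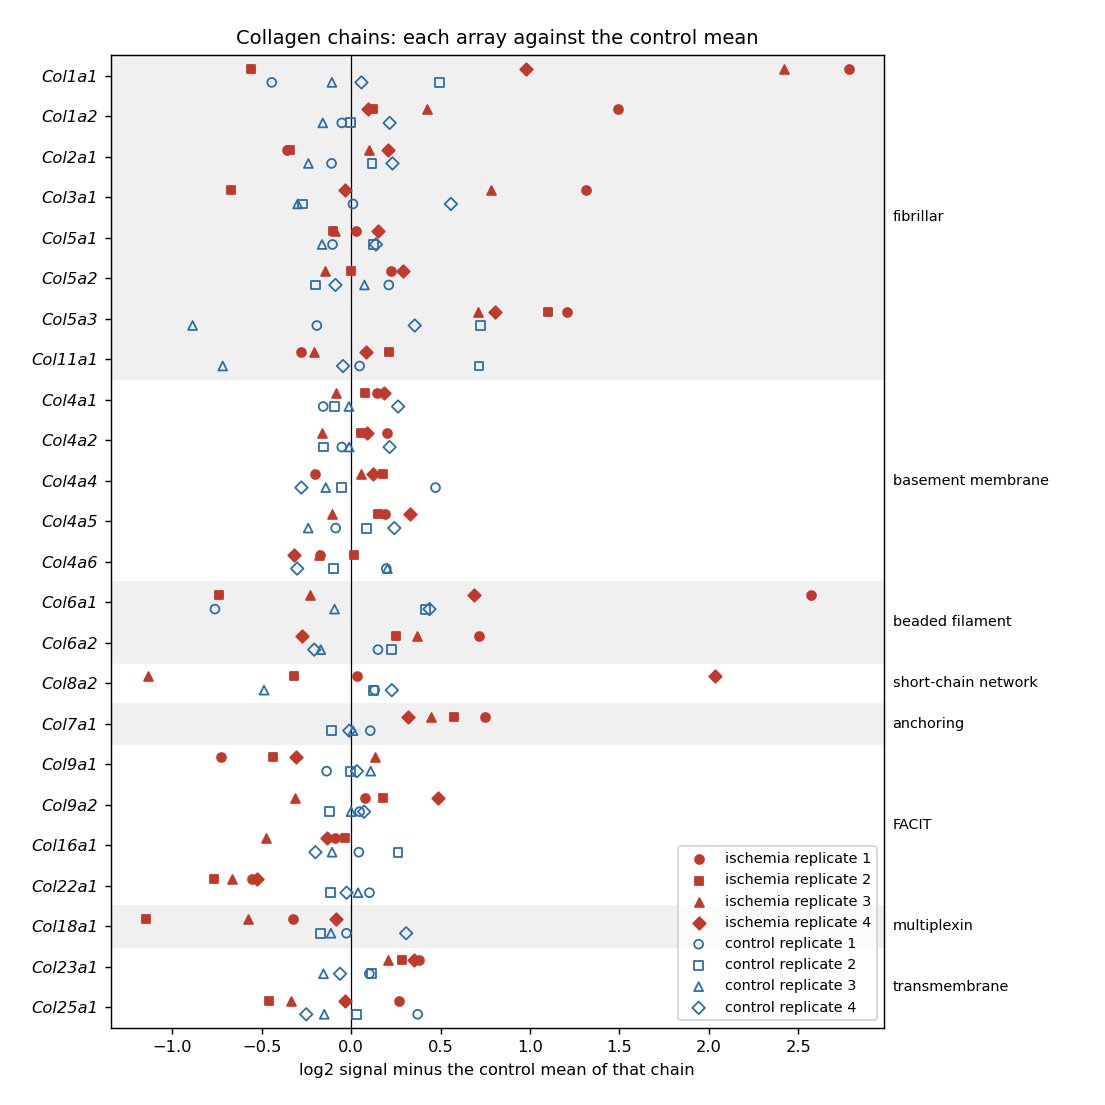
Log2 signal of each array minus the control mean of the same chain, for the 24 tested chains. Filled symbols are ischemia arrays and open symbols control arrays, with 1 shape per replicate number. Ischemia replicate 1 stands far to the right in Col1a1, Col1a2, Col3a1 and Col6a1, while the 4 ischemia arrays of Col7a1, Col22a1 and Col23a1 stand together.

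Values of single chains are given as log2 of the signal relative to the array's 75th percentile, so a value of 0 is as bright as that percentile, and differences are ischemia minus control on the same log2 scale.

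The type I and type III chains, which together make the thick fibrils of meninges, skin and vessel walls, varied mainly between ischemia pups. Col1a1 (probe at chr11:94813115-94813174, mm9) read -1.29, -4.63, -1.65 and -3.10 in ischemia replicates 1 to 4, against -4.51, -3.58, -4.18 and -4.01 in control replicates 1 to 4. Ischemia replicates 1 and 3 were the highest of all arrays and ischemia replicate 2 the lowest, so the groups overlap. The difference was 1.40 (SE 0.67, 95% interval -0.13 to 2.94, limma adjusted p = 0.494). Without ischemia replicate 2 it was 2.06, without ischemia replicates 1 and 4 it was 0.93, and with normexp it was 0.55. The probe was well above background on 3 ischemia arrays and 1 control array, so it passed the filter mainly through the group where it is high.

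Col1a2 (chr6:4490619-4490678) was bright on all arrays. Its values were 1.71, 0.34, 0.64 and 0.32 in ischemia replicates 1 to 4, against 0.17, 0.22, 0.06 and 0.44 in controls. Ischemia replicate 1 stood above every other array, and the other 3 ischemia arrays overlapped the controls. The difference was 0.53 (SE 0.29, adjusted p = 0.552), and 0.21 without ischemia replicate 1 and 0.27 without ischemia replicates 1 and 4.

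Col3a1 (chr1:45405589-45405648) codes for the type III chain, which is also the ligand of the receptor Adgrg1 at the pial surface. It read -1.22, -3.20, -1.75 and -2.56 in ischemia replicates 1 to 4, against -2.52, -2.80, -2.83 and -1.97 in controls. As with Col1a1, ischemia replicates 1 and 3 were the highest arrays and ischemia replicate 2 the lowest. The difference was 0.35 (SE 0.41, adjusted p = 0.813), and 0.03 without ischemia replicate 1, 0.06 without ischemia replicates 1 and 4, and 0.69 without ischemia replicate 2. With normexp it was 0.18. Adgrg1 itself differed by 0.02 (SE 0.08, adjusted p = 0.953).

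Of the 10 measured meningeal markers 6 had higher and 4 lower means in ischemia, and 0 passed the adjusted threshold. Relative to the mean of the controls, the ischemia arrays 1 to 4 were at 3.83, 0.52, 0.78 and 4.27 for Ptgds, a prostaglandin synthase on the meningeal list. They were at 3.68, 0.11, 1.02 and 1.41 for Slc6a13, a GABA transporter of meningeal cells singled out after its values were seen. They were at 0.67, -1.24, 0.19 and 0.44 for Dcn, the small proteoglycan that coats type I fibrils. For Lum, a related proteoglycan, they were at 0.46, -0.57, -0.30 and 0.21. Ischemia replicate 1 was the highest ischemia array for Slc6a13, Dcn and Lum, and ischemia replicate 2 the lowest ischemia array for all 4 markers. Ischemia replicate 3, high in Col1a1 and Col3a1, exceeded every control in Slc6a13 and barely in Ptgds, and lay within the controls in Dcn and Lum. Ischemia replicate 4, high in Ptgds and Slc6a13, exceeded every control in Col1a1 and lay within the control range in Col1a2 and Col3a1. Ogn, Crabp2 and Slc6a20a, also on the list, exceeded every control on 0 ischemia arrays. The Foxc2 and Foxd1 probes, of fibroblast regulators, were well above background on 0 of 8 arrays. The Slc6a13 probe was well above background on 4 ischemia arrays and 2 control arrays, so the ischemia arrays alone met the filter. Ischemia replicate 4 also had raised choroid plexus markers, and which tissue gave its Ptgds signal was not tested. The part of meningeal tissue in the type I and III values was not tested either.

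**Figure D3:**
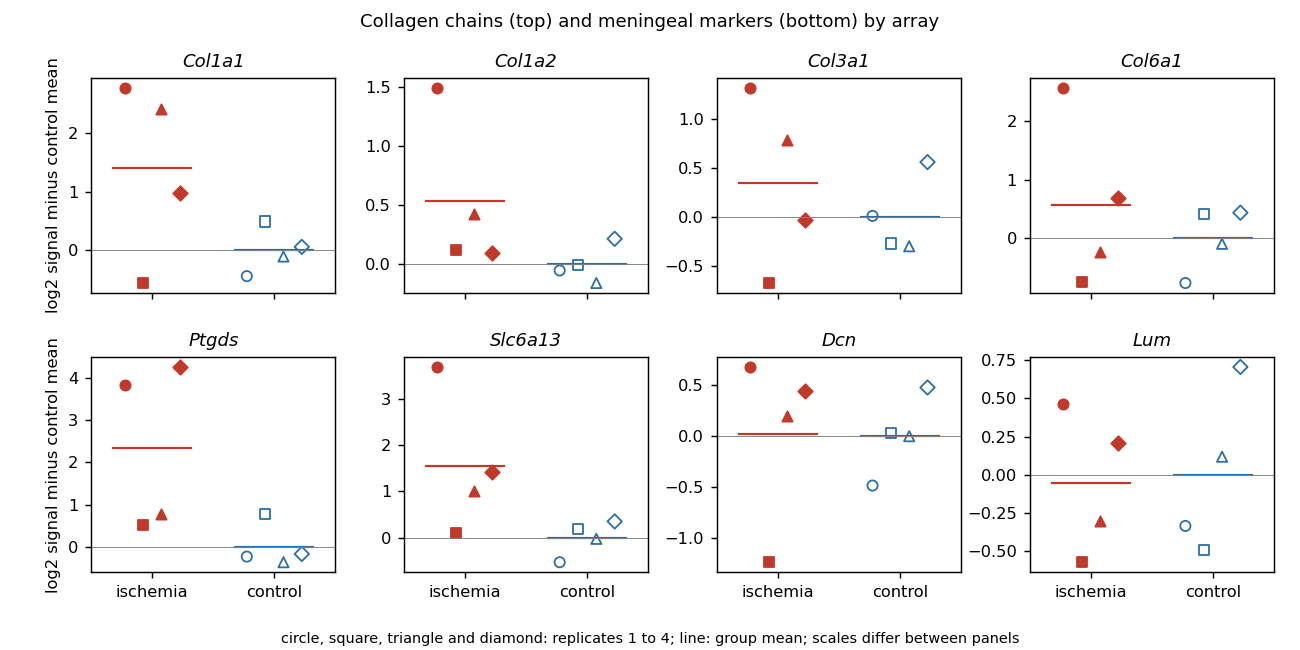
Log2 signal minus the control mean in each array for 4 collagen chains (top) and 4 meningeal markers (bottom), with ischemia left of control and a line at each group's mean. Ischemia replicate 1 (circle) is the highest ischemia array for all 4 chains and for Slc6a13, Dcn and Lum, and ischemia replicate 2 (square) is the lowest ischemia array in all 4 markers. Vertical scales differ between panels.

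Among the minor fibrillar chains of type V, only Col5a3 had an unadjusted limma p under 0.05. Col5a3 (chr9:20574592-20574651), a chain of the type V collagen that sets fibril width, read -2.36, -2.46, -2.85 and -2.76 in ischemia replicates 1 to 4, against -3.75, -2.84, -4.45 and -3.21 in controls. Control replicate 2 reached into the range of the ischemia arrays, and the other 3 controls lay below it. The difference was 0.96 (SE 0.32, unadjusted p = 0.0158, limma adjusted p = 0.355), with 4 ischemia arrays and 2 control arrays well above background, so that the ischemia arrays alone met the filter. With normexp it was 0.26. Without ischemia replicates 1 and 4 it was 0.91. The partner chains Col5a1 and Col5a2 differed by -0.00 (95% interval -0.22 to 0.21) and 0.09 (95% interval -0.19 to 0.37), and the groups overlap in both.

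Col2a1, the chain of cartilage and of the notochord, read -0.20, -0.18, 0.26 and 0.37 in ischemia replicates 1 to 4, against 0.05, 0.28, -0.08 and 0.39 in controls. The groups overlap, with a difference of -0.10 (SE 0.16, adjusted p = 0.873). Col11a1, its partner in cartilage fibrils, differed by -0.05 (SE 0.27, adjusted p = 0.969), and its controls spread from -3.62 to -2.19.

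The basement membrane chains differed little between the groups. Col4a1 (chr8:11199009-11199068, averaged over 10 spots per array) read 0.78, 0.71, 0.55 and 0.82 in ischemia replicates 1 to 4, against 0.48, 0.54, 0.62 and 0.90 in controls. Col4a2 (chr8:11448840-11448899) read 1.33, 1.18, 0.97 and 1.22 in ischemia replicates 1 to 4, against 1.07, 0.97, 1.11 and 1.34 in controls. For both chains control replicate 4 was the highest array, ischemia replicate 3 was the lowest ischemia array and the groups overlap. The difference was 0.08 for Col4a1 (95% interval -0.16 to 0.32, adjusted p = 0.832) and 0.05 for Col4a2 (95% interval -0.19 to 0.28, adjusted p = 0.911).

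For the remaining type IV chains the groups overlap as well. Col4a4 differed by 0.04 (SE 0.16). Col4a5, X-linked like Col4a6, ranged from -2.02 to -1.58 in ischemia and from -2.15 to -1.67 in controls, a difference of 0.14 (SE 0.13, adjusted p = 0.746). Col4a6 differed by -0.16 (SE 0.13, adjusted p = 0.697) with its brighter probe and by 0.44 (SE 0.47) with its other kept probe, which stood 0.78 above the mean of the controls in ischemia replicate 1 and 1.76 above it in ischemia replicate 4. The probes of Col4a6 thus disagree in sign.

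Type VI chains were near the detection limit. Col6a1 (chr10:76171538-76171597) read -0.87, -4.18, -3.67 and -2.75 in ischemia replicates 1 to 4, against -4.20, -3.02, -3.53 and -3.00 in controls. Ischemia replicate 1 stood alone at the top, and the other arrays of both groups mixed. The difference was 0.57 (SE 0.66, adjusted p = 0.809), but -0.09 without ischemia replicate 1 and -0.48 without ischemia replicates 1 and 4, and the probe was well above background on 2 arrays in each group. Col6a2 differed by 0.27 (SE 0.20, adjusted p = 0.688), with 3 arrays in each group well above background and ischemia replicate 1 again the highest. It was 0.12 without ischemia replicate 1, 0.45 without ischemia replicate 4, 0.31 without both and 0.06 with normexp. For Col6a1 the value with normexp was 0.21.

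Col8a2, a chain of the corneal Descemet membrane, read -3.74, -4.09, -4.90 and -1.74 in ischemia replicates 1 to 4, against -3.64, -3.64, -4.26 and -3.54 in controls. The single high value is ischemia replicate 4, the array with raised choroid plexus markers, in which the choroid plexus gene Ttr exceeded the mean of the controls by 10.12 on the log2 scale. The difference was 0.15 (SE 0.59, adjusted p = 0.954), and -0.47 without that array. The probe was well above background on 1 ischemia array and 3 control arrays, and the part of choroid plexus tissue in that value was not tested.

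Col7a1 was among the 3 chains in which the groups did not overlap. Its probe (chr9:108886861-108886920) read -1.28, -1.46, -1.59 and -1.71 in ischemia replicates 1 to 4, against -1.92, -2.14, -2.02 and -2.04 in controls. All 4 ischemia arrays lay above all controls. The difference was 0.52 (SE 0.10, unadjusted p = 0.000636, limma adjusted p = 0.221), about 1.43-fold. It was 0.51 without ischemia replicates 1 and 4 and 0.29 with normexp.

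Col22a1, a FACIT of tissue junctions such as that of muscle and tendon, was the chain with the smallest p. It read -1.32, -1.53, -1.43 and -1.29 in ischemia replicates 1 to 4, against -0.66, -0.88, -0.73 and -0.79 in controls with the probe at chr15:71628906-71628965. All ischemia arrays lay below all controls, and the spread within each group was small, with an SD of 0.11 in ischemia and 0.09 in control. The difference was -0.63 (SE 0.08, unadjusted p = 2.87e-05, limma adjusted p = 0.134), or 0.646-fold. A second probe of the gene (chr15:71699345-71699404) also gave lower ischemia values, with a difference of -0.34 (SE 0.07, unadjusted p = 0.00117). The first probe differed by -0.72 without ischemia replicates 1 and 4 and by -0.45 with normexp.

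The other FACITs overlapped between the groups. Col9a1, a chain that decorates cartilage fibrils, read -2.70, -2.41, -1.84 and -2.28 in ischemia replicates 1 to 4, against -2.11, -1.98, -1.86 and -1.94 in controls, a difference of -0.33 (SE 0.16, adjusted p = 0.505), and of -0.20 without ischemia replicate 1 and -0.22 with normexp. Its partner Col9a2 differed by 0.11 (SE 0.15). Col16a1 differed by -0.18 (SE 0.13) with its brighter probe and -0.41 (SE 0.19) with its other kept probe.

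Col18a1, the multiplexin of vascular and epithelial basement membranes and the source of endostatin, read 0.27, -0.55, 0.02 and 0.51 in ischemia replicates 1 to 4, against 0.58, 0.43, 0.49 and 0.91 in controls with the probe at chr10:76514926-76514985. Ischemia replicate 4 lay within the control range and the other 3 below it. The difference was -0.54 (SE 0.22, unadjusted p = 0.0387, limma adjusted p = 0.433). A second kept probe gave -0.64 (SE 0.27). Without ischemia replicates 1 and 4 the difference was -0.86 (adjusted p = 0.269), further from 0, and without ischemia replicate 2 it was -0.33.

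Of the transmembrane collagens, Col23a1 (chr11:51396885-51396944) read -1.70, -1.80, -1.88 and -1.73 in ischemia replicates 1 to 4, against -1.98, -1.97, -2.24 and -2.14 in controls. All ischemia arrays lay above all controls. The difference was 0.31 (SE 0.08, unadjusted p = 0.00451, limma adjusted p = 0.271), and it was 0.25 without ischemia replicates 1 and 4 and 0.15 with normexp. A second kept probe gave 0.18 (SE 0.13), and there control replicate 2 lay above all 4 ischemia arrays. Another Col23a1 probe, left out as dim, went the other way, with a difference of means of -0.59. It was well above background on 0 ischemia arrays and 1 control array, and it was not tested. Col25a1, a neuronal collagen whose shed part is found in amyloid plaques and whose probe with the glycine repeat is printed with the sequences, read -2.73, -3.46, -3.34 and -3.04 in ischemia replicates 1 to 4, against -2.63, -2.97, -3.15 and -3.25 in controls. The groups overlap, with a difference of -0.14 (SE 0.19, adjusted p = 0.839), while another kept probe gave 0.53 (SE 0.30). That other probe was well above background on 4 ischemia arrays and 2 control arrays, so the ischemia arrays alone met the filter.

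Across the 24 chains, ischemia replicate 1 was the highest of the 8 arrays in 8 chains and ischemia replicate 4 in 5, while ischemia replicate 2 was the highest in 0 and the lowest in 5. Control replicate 3 was the lowest in 6. Over the 8 fibrillar chains the median deviation from the control mean was 0.72, -0.05, 0.26 and 0.18 in ischemia replicates 1 to 4, against -0.08, 0.12, -0.20 and 0.18 in control replicates 1 to 4. Over the 5 basement membrane chains it was 0.14, 0.08, -0.11 and 0.12 in ischemia replicates 1 to 4, against -0.05, -0.09, -0.01 and 0.22 in controls. By the median, ischemia replicate 1 thus stood farther from the control mean over fibrillar than over basement membrane chains, a contrast that was not tested. In that array the fibrillar deviations ran from -0.36 in Col2a1 to 2.78 in Col1a1, so the median does not describe every fibrillar chain.

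**Figure D4:**
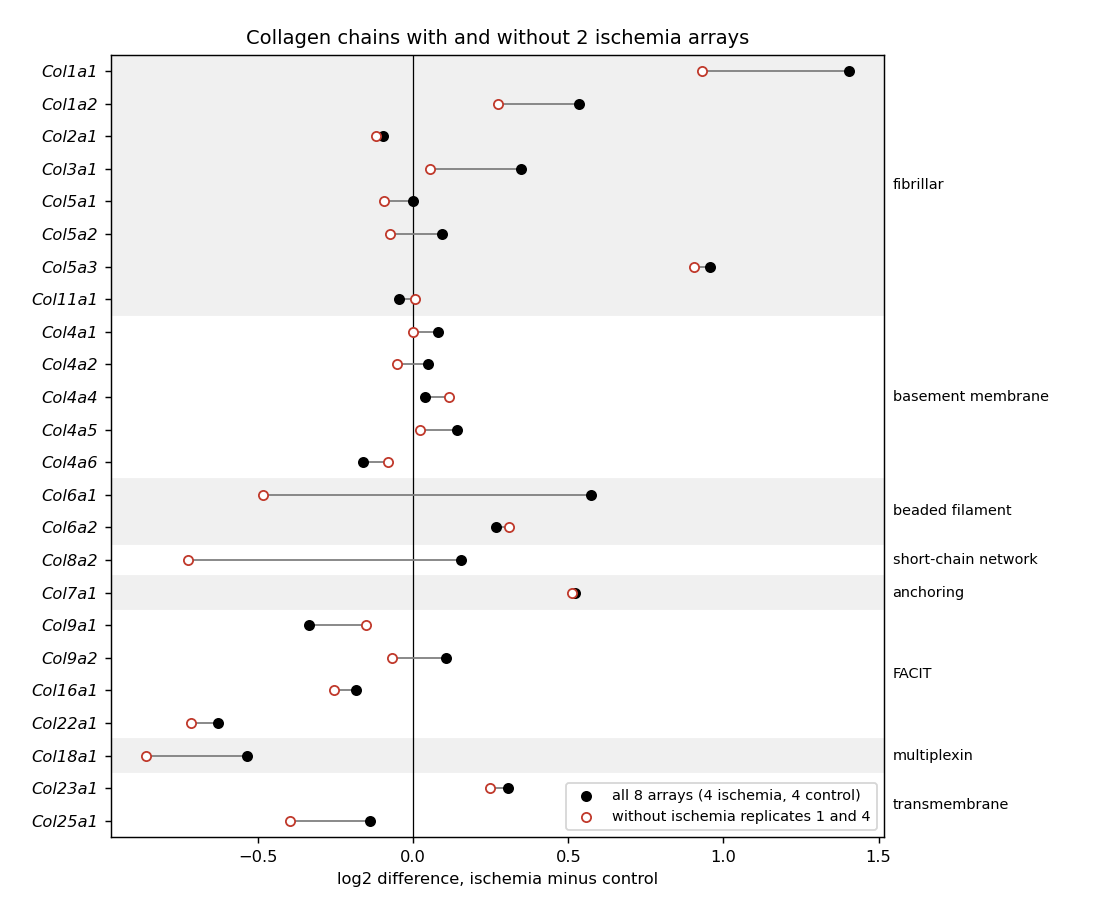
Log2 difference, ischemia minus control, of the 24 chains with all 8 arrays (filled) and without ischemia replicates 1 and 4 (open). Of the 24 chains 7 change sign (Col4a1, Col4a2, Col5a2, Col6a1, Col8a2, Col9a2 and Col11a1), Col1a2 and Col3a1 move toward 0, and Col5a3, Col7a1, Col22a1 and Col23a1 keep their direction at 0.91, 0.51, -0.72 and 0.25.

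Genes that make, cut, cross-link or bind collagen did not pass either. Of 50 such genes 45 were measured, with 23 higher and 22 lower in ischemia and a median difference of 0.01, and limma called 0 of them. At an unadjusted p under 0.05 stood 8 (17.8%, beside the 10.9% of all genes), 3 higher and 5 lower, and the groups did not overlap in 5 (11.1%, beside 6.55%).

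Among the enzymes and chaperones that fold the chains, 15 of 16 were measured. Serpinh1, the collagen chaperone of the endoplasmic reticulum, differed by -0.26 (SE 0.11, limma adjusted p = 0.433), and P3h3, a prolyl 3-hydroxylase, by 0.46 (SE 0.17, adjusted p = 0.396). All 3 of the measured lysyl oxidases, which cross-link fibrils, had lower means in ischemia, where 43% of all genes were higher. Lox and Loxl4 were dark. Loxl1 differed by -0.08 (SE 0.11) and Loxl3 by -0.09 (SE 0.11), and the groups overlap in both. Loxl2, which acts on type IV collagen, read -1.04, -0.89, -1.23 and -1.17 in ischemia replicates 1 to 4, against -0.77, -0.67, -0.75 and -0.81 in controls. All ischemia arrays lay below all controls, with a difference of -0.33 (SE 0.08, unadjusted p = 0.00395, adjusted p = 0.262). Adamts2, the protease that removes the amino end of procollagen, differed by 0.19 (SE 0.07, adjusted p = 0.396).

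Receptor genes went both ways. Itga1, the integrin chain that binds type IV collagen, differed by -0.30 (SE 0.11, adjusted p = 0.396) and Itga11, an integrin chain that binds type I collagen, by 0.56 (SE 0.21, adjusted p = 0.396). Each lay on 1 side of all controls in 4 of 4 ischemia arrays. Itga11 was highest in ischemia replicate 1, as the type I chains were, and differed by 0.37 without that array, by 0.25 without ischemia replicates 1 and 4 and by 0.24 with normexp. With normexp Itga1 differed by -0.16 and Adamts2 by 0.11. Of the 11 basement membrane partners, all measured, Lama2 differed by -0.24 (SE 0.07, adjusted p = 0.324) and Nid2 by -0.21 (SE 0.07, adjusted p = 0.380), both with all 4 ischemia arrays below every control. Over 11 endothelial markers, of the vessels that carry these chains, the median difference was 0.06, with 7 higher and 4 lower. Emcn differed by 0.80 (adjusted p = 0.368) and Kdr by -0.31 (adjusted p = 0.243), and all ischemia arrays lay below all controls for Kdr. The Emcn probe was well above background on 4 ischemia arrays and 2 control arrays, so the ischemia arrays alone met the filter. Over 9 mural markers the median was -0.14, with 3 higher and 6 lower. Notch3 differed by -0.34 (adjusted p = 0.227), again with all ischemia arrays below all controls, and limma called 0 of these markers. These 3 markers were named after their values were seen, and their part in the chain values was not tested.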

How the data were processed

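The intensities are the processed, mean and local background signals of each spot that the authors deposited, extracted with Agilent Feature Extraction 10.7.3.1 per the file headers. The deposited value table is a ratio: each column is the processed signal over 1 constant per array, within 0.00989% for values over 0.5, and it served as an alternative.

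Control spots were left out and 26 probes, none of them a collagen probe, were dropped for outlier flags. Spots of a probe were averaged on the log2 scale, and each array's log2 75th percentile was subtracted. Of 27131 kept probes, 1 per gene gave 19751 genes, named through RefSeq accessions, symbols or older symbols. Groups were compared with limma 3.58.1 (lmFit, eBayes) in R 4.3.3. The p-values were adjusted by Benjamini-Hochberg over the whole set of genes and held to 0.05. The fit was tested on simulated data. Coordinates are of mm9 and counted from 1. The exon or UTR under a probe was not analysed here.

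Members, role groups and lists were chosen with earlier results of these data known. The chains described in full are those with an unadjusted p under 0.05, the 2 with the smallest p in each role group, and 12 fixed chains. Pathway genes are named at an unadjusted p under 0.05. The other named markers and chains were chosen after their values were seen.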

Additional observations from a re-analysis of the deposited data

Results flagged for a closer look

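Of 74 sets of 4 arrays, 2 had 1 array set apart from the other 3 by Dixon's ratio, where chance gives about 1 in 20, or 3.7. The ratio was 0.859 for Col8a2 in controls, with replicate 3 low, and 0.839 for the mean of the cortical neuron markers in controls, with replicate 3 high.

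Of the probes left out as dim, 4 were well above background on 1 ischemia array each and on 0 controls. A Col20a1 probe (chr2:180750502-180750561) had signals of 25.5, 23.0, 1141 and 8.29 in ischemia replicates 1 to 4, against 12.2 to 27.2 in controls, while the gene's other probe read 17.1 in ischemia replicate 3. The high reading therefore stands on 1 spot. Col6a3, a chain of type VI collagen, had 41.3 in ischemia replicate 1, against 6.33 to 21.6 in controls, in the array where Col6a1 was also highest. A Col6a5 probe had 31.4 in ischemia replicate 2, against 4.70 to 7.48 in controls. Another Col25a1 probe had 36.8 in ischemia replicate 3, against 5.25 to 23.4 in controls. The opposite also occurred, with 0 ischemia arrays above background, for Col11a2 (3 controls), a Col14a1 probe (1 control, at 44.2) and a dim Col23a1 probe (1 control). These differences were not tested.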

How the results depend on the processing

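Of the 24 chains, 13 kept the sign of their difference under each of 19 other settings that gave a value and 11 did not, among them Col4a4, Col5a1, Col5a2 and Col9a2. The filter on all 8 arrays gave 5 chains no value. With normexp 12 chains were more than 1.5 times smaller in size, among them Col5a3 (0.26), Col7a1 (0.29) and Col23a1 (0.15). Limma called 0 collagen chains under every setting except a trended and robust variance, which called 1, Col22a1 (adjusted p = 0.0356), and 0 pathway genes under any. Over all genes 1 was called, against 20 with the trended and robust variance, 2 with median scaling, and 0 with normexp, with quantile normalization, with a filter that asks for detection on all 8 arrays, with no filter, with each kept probe tested by itself and without ischemia replicates 1 and 4. With the replicate number as a block 0 genes and 0 chains were called. Same-numbered arrays deviated with correlations of 0.08, -0.06, 0.29 and 0.39, so the numbers were not taken to pair pups. With 1 array left out, 0 to 1 genes and 0 to 0 chains were called, and the median over chains ranged from 0.02 to 0.15. Without ischemia replicates 1 and 4 the median was -0.060, Col11a1 was at 0.0039, Col4a1 at -0.0021, Col4a2 at -0.053, Col6a1 at -0.48 and Col8a2 at -0.73. With the mean of the kept probes Col25a1 was at 0.20 and Col4a6 at 0.14. The Col25a1 mean includes the probe that met the filter through the ischemia arrays alone. With 1 array left out in turn, Col11a1 ranged from -0.29 to 0.19, Col4a2 from -0.0047 to 0.12, Col6a1 from -0.094 to 1.01 and Col8a2 from -0.47 to 0.58. The causes were not tested. Dim probes limit Col1a1, Col5a3, Col6a1, Col6a2 and Col8a2, which were not well above background on every array.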
